A study of Mus musculus with 6 samples.

Results

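Sialyl-, galactosyl-, fucosyl- and GalNAc-transferases were read in sorted mouse hair follicle cells 3 days after the skin had received the carcinogen DMBA or its vehicle. The members were taken by name: every probe whose RefSeq accession maps to a symbol of the families St3gal, St6gal (with St6galnac), St8sia, B3gal, B4gal, B3gnt, Galnt or Fut with a number, and Ugcg. The array carries 97 such probes for 76 genes of the 78 that the annotation names, and 62 of those genes, out of 17834 tested in all, had a probe that the scanner software marked as well above background on 3 arrays or more. The family was proposed with values of this same comparison in view, so the differences between DMBA and vehicle given here are a description and no test of the family. Beside them stand the fit and the adjusted p over all genes tested.

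The cells were taken from epidermis of males carrying a K15-EGFP reporter, in which the keratin 15 promoter drives green fluorescent protein in the follicle. All mice had been depilated and then painted with acetone (vehicle) or with DMBA, a polycyclic hydrocarbon that cells convert into DNA-binding products, and no genotype beyond the reporter and no age is given in the sources used here. Cells high in EGFP, high in the integrin ITGA6 and negative for Sca1 were collected as a mixture of follicle stem cells and germ. With 3 mice to a group and 1 array to a mouse, these are bulk values, in which fewer cells of a type and less RNA per cell cannot be told apart. Krt15 and Itga6, the genes behind the positive gates, and Krt5, Krt14, Cd34, Lgr5, Sox9 and Lhx2, other known genes of these cells, were well above background on all 6 arrays.

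These enzymes build the sugar chains of the cell surface in the Golgi, each adding 1 sugar to a protein, a lipid or a growing chain. Polypeptide GalNAc-transferases start the O-glycans of mucins, galactosyl- and GlcNAc-transferases lengthen chains, and fucosyl- and sialyltransferases cap them, which sets what selectins, galectins and siglecs can bind. In glycolipids the first sugar is glucose, added to ceramide by Ugcg, and sialylated glycolipids are called gangliosides. Glucosylceramide made by Ugcg is also the precursor of the ceramides that seal the epidermis, and the ganglioside GD3 is known as an abundant antigen of melanoma cells.

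Of the 62 genes tested, 35 had a log2 difference (DMBA minus vehicle) above 0 and 27 below 0, with a median of 0.06 against -0.01 over all genes tested. None passed limma's test over all genes (0 of 62 at an adjusted p under 0.05, where 0% of all genes passed; smallest adjusted p = 0.495, that of St3gal5). At an unadjusted p under 0.05, 0 members were higher, where 2.74% of all genes were, and 2 were lower, St3gal5 and B4galt6. That is 3.23% of the members, where 2.5% of all genes were lower, and nothing is read from it. B4galt6 was well above background on 3 vehicle arrays but on 1 DMBA array only, so its vehicle arrays alone carried it past the filter. The 3 DMBA values all lay above the 3 vehicle values in 1 member, B4galt7, and all below them in 2, St3gal5 and Fut7. Over all genes tested, groups without overlap made up 4.88% on the higher and 5.17% on the lower side. Among the members the shares were 1.61% and 3.23%, from which nothing is read, since this comparison was in view when the family was proposed. The counts of members without overlap were 6 higher and 9 lower without vehicle 1, 8 and 6 without vehicle 2, 3 and 6 without vehicle 3, 5 and 10 without DMBA 1, 4 and 5 without DMBA 2, and 7 and 2 without DMBA 3. The shares of all genes moved too, to between 8.35% and 9.86% on the higher side and, on the lower, to 16% without DMBA 1 and 8.85% to 10.8% without each other array. Scaling each array by its median in place of its 75th percentile turned the counts of members to 0 higher and 4 lower, and those of all genes from 870 higher and 922 lower to 667 and 1334.

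Among these 3 genes, each read on its brightest probe, the separation was wide in St3gal5. Between the nearest vehicle and DMBA arrays the gap was 1.39 on the log2 scale in St3gal5, 0.02 in Fut7 and 0.01 in B4galt7.

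**Figure D1:**
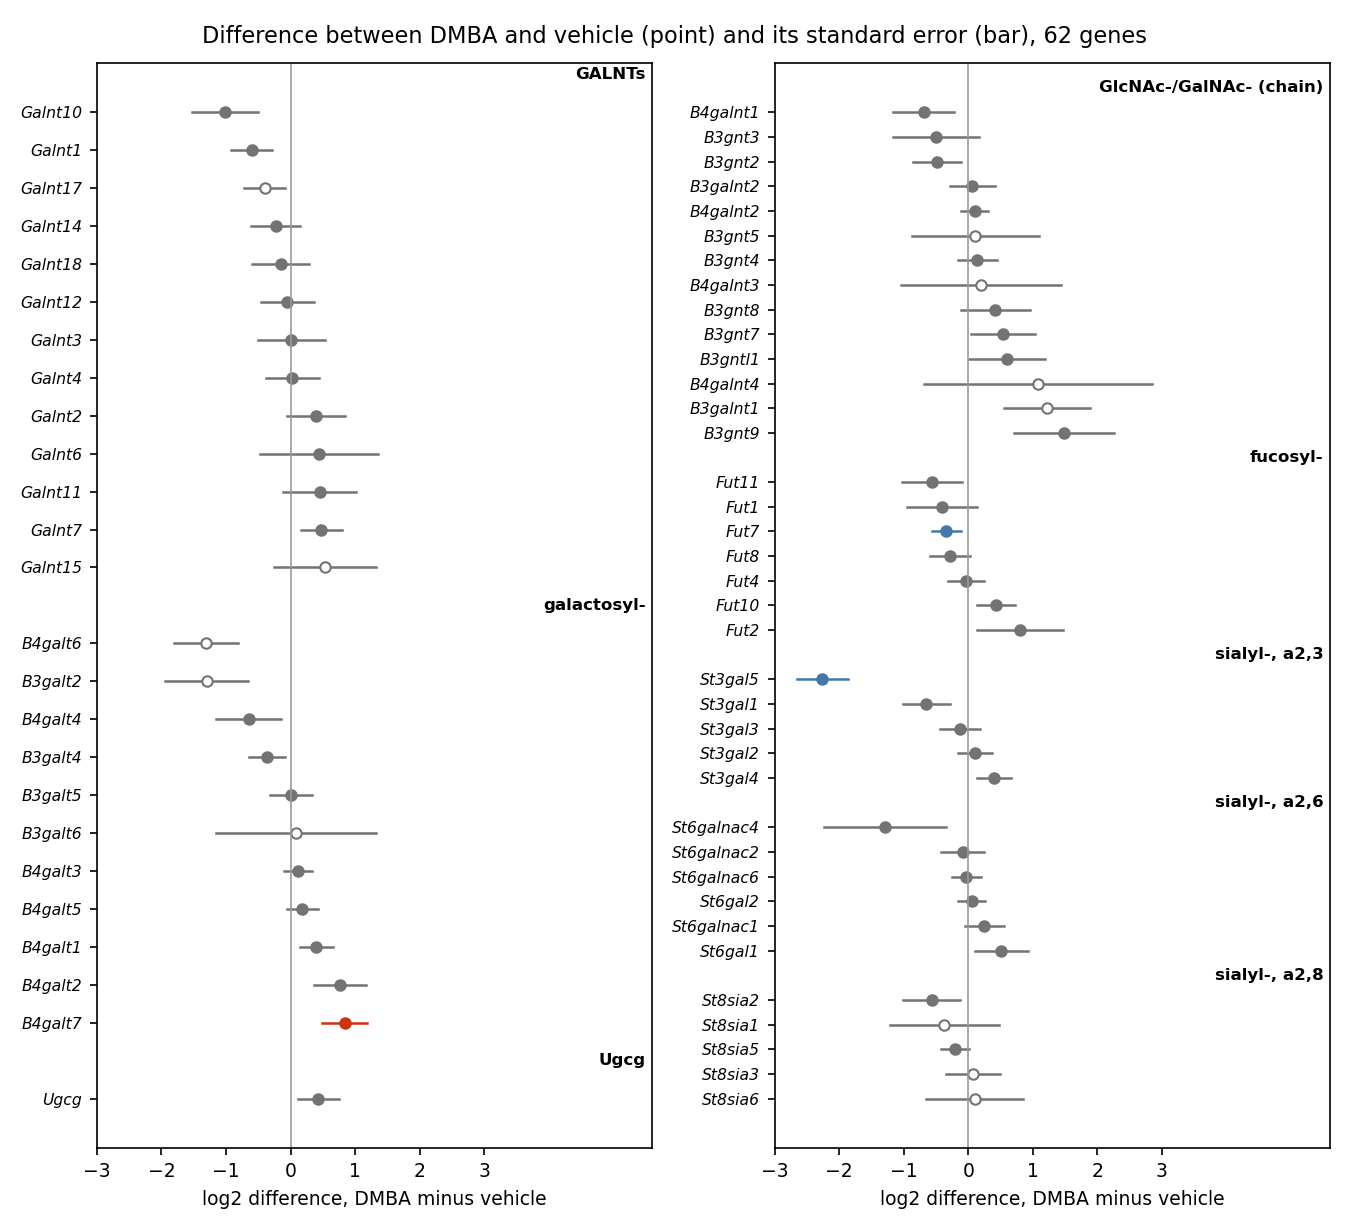
Log2 difference between DMBA and vehicle (horizontal axis) for the 62 genes tested, grouped by the sugar they add; points are differences of the means of 3 arrays and bars their standard errors from limma. Blue and red mark groups that do not overlap (DMBA lower or higher), open points genes not well above background on all 6 arrays; St3gal5 lies farthest to the left at -2.26 and the highest point is B3gnt9 at 1.48.

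Gangliosides are made stepwise, and the member with the lowest difference of all 62, St3gal5, belongs to that route. St3gal5 encodes GM3 synthase, which puts the first sialic acid on lactosylceramide and through which nearly all gangliosides of the route pass. On the log2 scale relative to the array's 75th percentile, it lay at 2.21, 1.23 and 0.96 on vehicle arrays 1 to 3 and at -0.43, -1.22 and -0.74 on DMBA arrays 1 to 3. All DMBA arrays lay below all vehicle arrays, and the probe was well above background on all 6. The group means were 1.47 ± 0.66 (SD, n = 3) and -0.80 ± 0.39, a log2 difference of -2.26 (SE 0.40; 95% interval from -3.24 to -1.29), or 4.80-fold lower after DMBA. By p-value St3gal5 stood 40th of all genes tested in limma, with an adjusted p of 0.495 that did not pass. It is read by 1 probe, so no other probe bears on the value. Over the 17 alternatives its difference ran from -2.52 without vehicle 3 to -1.71 when the fit also held each array's share of detected probes (in the following, the detection covariate).

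The steps before GM3 are those of Ugcg and of a pair of galactosyltransferases. Ugcg, which makes glucosylceramide, lay at 0.04, 0.28 and -0.21 in vehicle and at -0.11, 0.78 and 0.72 in DMBA. Its groups overlapped, DMBA 1 lying within the vehicle range, and the difference was 0.43 (95% interval from -0.35 to 1.21). Lactosylceramide is made by either of 2 galactosyltransferases. B4galt5 lay at -1.72, -1.72 and -1.67 in vehicle and at -1.22, -1.57 and -1.79 in DMBA, with a difference of 0.18 (95% interval from -0.40 to 0.75) and a value of -0.80 on its dimmer probe. B4galt6, the other one, lay at -4.54, -3.20 and -3.96 in vehicle and at -4.54, -5.14 and -5.95 in DMBA. Vehicle 1 and DMBA 1 were level, the other DMBA arrays lay below all vehicle arrays, and the difference was -1.31 (SE 0.49; adjusted p = 0.938 in limma). B4galt6 was dim, marked as above background on all vehicle arrays but on 1 DMBA array only, and its difference was -0.51 with normexp background correction. Its second probe, detected on 2 arrays, both of them vehicle, and therefore not tested, had a difference of -1.25.

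The 250 bases before the start of 3 of these genes are printed because they encode consecutive steps, glucosylceramide, lactosylceramide and GM3, of which the array separated the groups in St3gal5 only. Each is from RefSeq on GRCm38.p6, 5′ to 3′ on the gene's strand, with capitals for the GC box GGGCGG or its reverse complement.
Ugcg at chr4:59189300-59189549, plus strand: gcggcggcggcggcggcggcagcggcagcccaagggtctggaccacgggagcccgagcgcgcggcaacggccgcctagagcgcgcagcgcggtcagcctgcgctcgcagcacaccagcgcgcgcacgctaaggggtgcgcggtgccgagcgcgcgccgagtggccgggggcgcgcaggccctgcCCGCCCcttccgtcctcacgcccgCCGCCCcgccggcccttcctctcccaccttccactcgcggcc
B4galt5 at chr2:167349179-167349428, minus strand: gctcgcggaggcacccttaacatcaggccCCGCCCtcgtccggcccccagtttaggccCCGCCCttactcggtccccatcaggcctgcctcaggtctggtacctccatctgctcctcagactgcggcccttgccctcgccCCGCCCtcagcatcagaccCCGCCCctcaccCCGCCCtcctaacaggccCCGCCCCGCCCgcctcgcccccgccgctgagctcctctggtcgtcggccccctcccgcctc
St3gal5 at chr6:72097358-72097607, plus strand: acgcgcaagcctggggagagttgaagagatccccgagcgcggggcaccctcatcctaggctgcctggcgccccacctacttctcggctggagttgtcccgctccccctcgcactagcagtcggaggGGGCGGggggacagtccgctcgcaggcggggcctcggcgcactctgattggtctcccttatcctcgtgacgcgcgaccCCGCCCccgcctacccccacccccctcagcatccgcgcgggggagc
All 3 are rich in G and C (80.4%, 73.2% and 71.6% in that order), with 43, 21 and 25 CpG dinucleotides. The GC box was found 2 times in the window of Ugcg, 7 times in that of B4galt5, where 2 matches overlap each other, and 2 times in that of St3gal5. Of all 32851 promoter windows of that length in the table, 32.7% hold it. The core GCGTG bound by the aryl hydrocarbon receptor, the sensor of compounds such as DMBA, occurs in 28.2% of all windows. It was found 2 times in the window of Ugcg, 127 and 50 bases before the start, and not in those of B4galt5 and St3gal5. The E-box CACGTG (6.02% of all windows) and the p53 half-site (7.13%) were found in none of the 3, and the antioxidant response element core TGACNNNGC (10.2%) 1 time, in Ugcg. Both strands were searched, and GCGTG and the GC box did not overlap in these windows. Such matches are letters in a window and say nothing of binding. The table held windows for 45 of the members.

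**Figure D2:**
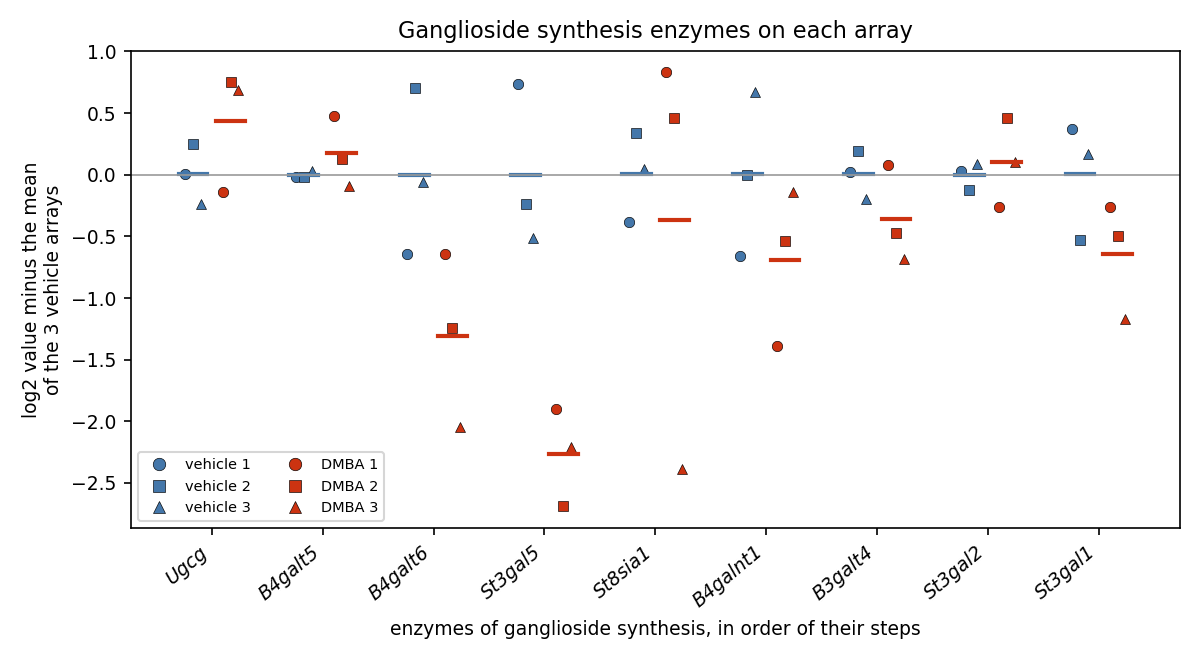
Values of 9 enzymes of ganglioside synthesis on each array, as log2 value minus the mean of the 3 vehicle arrays (vertical axis); symbols are arrays, short lines group means. The St3gal5 points of DMBA lie well below those of vehicle, while the groups of the other 8 genes overlap.

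Beyond GM3 the route branches. St8sia1, the GD3 synthase, was dim, at -5.70, -4.98 and -5.27 in vehicle and -4.49, -4.86 and -7.71 in DMBA. DMBA 1 and DMBA 2 were above all vehicle arrays and DMBA 3 below them, and the probe was detected on every array but 1 of DMBA. The difference of -0.37 (SE 0.85) turned to 0.64 without DMBA 3. B4galnt1, which makes GM2 and GD2, lay at 0.45, 1.11 and 1.78 in vehicle and at -0.28, 0.57 and 0.97 in DMBA. The groups overlapped, with a difference of -0.69 (SE 0.47) that was -0.34 without DMBA 1 and -1.40 with the detection covariate. B3galt4, the GM1 synthase, had a difference of -0.36 (SE 0.28), and 0.21 on its dimmer probe. St3gal2, which caps GM1 to form GD1a, had 0.10 (SE 0.26), and -0.48 on its dimmer probe. Of these 8 genes and St3gal1, St3gal5 alone had groups that did not overlap on the brighter probe. The lower bound of the 95% interval was -2.50 in B4galt6, -2.43 in St8sia1, -1.82 in B4galnt1, -1.53 in St3gal1 and -1.04 in B3galt4. It was -0.53 in St3gal2, -0.40 in B4galt5 and -0.35 in Ugcg.

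The alpha-2,3 sialyltransferases cap galactose on lipids or proteins. Of the 5 tested, St3gal5 included, 2 were above 0 and 3 below. St3gal1, which sialylates core 1 O-glycans, lay at -1.33, -2.23 and -1.53 in vehicle and at -1.96, -2.20 and -2.87 in DMBA. Vehicle 2 lay as low as DMBA 1 and DMBA 2, and the difference was -0.65 (SE 0.36; adjusted p = 0.988 in limma). Its dimmer probe separated the groups, with -4.08, -4.23 and -2.20 against -5.15, -5.61 and -7.57, a difference of -2.60, but was well above background on 1 DMBA array only. St3gal4, an enzyme of N-glycans and selectin ligands, lay at 0.97, 1.61 and 1.49 in vehicle and at 1.81, 1.59 and 1.88 in DMBA. DMBA 2 was level with vehicle 2, and the difference was 0.40 (95% interval from -0.23 to 1.03). St3gal3 had a difference of -0.13 (SE 0.31), and St3gal6 was above background on 0 arrays.

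Among the alpha-2,6 sialyltransferases 6 of 8 genes were tested, with differences from -1.29 to 0.51. St6gal1, which puts alpha-2,6 sialic acid on N-glycans, lay at -1.15, -0.37 and -1.31 in vehicle and at -1.04, -0.40 and 0.14 in DMBA, with a difference of 0.51 (SE 0.41) and 0.18 on its dimmer probe. DMBA 3 was the highest array, and the others shared 1 range. St6galnac2, an enzyme of O-glycans, lay at -0.76, 0.14 and -0.71 in vehicle and at -0.55, -0.16 and -0.86 in DMBA. The difference of -0.09 (SE 0.34) was 0.21 without vehicle 2. St6galnac1, which makes the sialyl-Tn antigen, had a difference of 0.25 (SE 0.30), St6gal2 0.05 (SE 0.21) and St6galnac6 -0.03 (SE 0.22). The lowest value was that of St6galnac4 (-1.29, SE 0.95), whose vehicle arrays spread from -3.37 to 0.06 and enclosed DMBA 1 and DMBA 3.

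Alpha-2,8 sialyltransferases lengthen sialic acid chains. Besides St8sia1, St8sia2, which makes polysialic acid, had a difference of -0.57 (SE 0.44), with vehicle 3 at 3.46 and the other 5 arrays from 1.66 to 2.17. St8sia5 had a difference of -0.21 (SE 0.22), St8sia6 0.10 (SE 0.75) and St8sia3 0.07 (SE 0.42). St8sia4, the second polysialic acid synthase, was above background on 0 arrays. Over all 16 sialyltransferases tested, 7 lay above 0 and 9 below, with a median of -0.06.

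Galactosyltransferases were tested for 11 of 12 genes, 7 above 0 and 4 below. B4galt1, which makes most of the N-acetyllactosamine of N-glycans, lay at 2.16, 1.74 and 1.93 in vehicle and at 2.00, 2.62 and 2.40 in DMBA. DMBA 2 and DMBA 3 were above all vehicle arrays and DMBA 1 was not, and the difference was 0.40 (95% interval from -0.24 to 1.03), with 0.06 on the dimmer probe. B4galt7 adds the first galactose of the linker that ties heparan and chondroitin sulfate to proteoglycans. It lay at -2.79, -2.63 and -2.47 in vehicle and at -1.63, -2.46 and -1.29 in DMBA. The groups did not overlap, but DMBA 2 was level with vehicle 3, and the separation was lost with quantile normalization, with median scaling and in the deposited matrix. The difference was 0.84 (SE 0.35; adjusted p = 0.953 in limma), or 0.59 without DMBA 3. B3galt6, which adds the second galactose of the same linker, had a difference of 0.09 (SE 1.24), with vehicle 1 at -7.30 and the other arrays from -5.64 to -3.12. B4galt2 had a difference of 0.77 (SE 0.40), its DMBA arrays from -0.28 to 0.33 and its vehicle arrays from -1.45 to -0.06. B3galt2 had -1.30 (SE 0.64), with DMBA 1 inside the vehicle range and DMBA 2 lowest at -5.87.

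Fucosyltransferases, among them those that make the H antigen, the Lewis antigens and core fucose, gave 2 differences above 0 and 5 below in 7 genes tested. Fut7, which completes the sialyl Lewis X ligand of selectins in leukocytes, lay at -3.0, -3.31 and -2.93 in vehicle and at -3.53, -3.40 and -3.33 in DMBA. The groups were apart by less than the spread within either of them. The difference was -0.34 (SE 0.22; adjusted p = 0.999 in limma), with 0.24 on its dimmer probe, and -0.05 for the mean of both. Fut8, which adds core fucose to N-glycans, lay at -1.87, -1.86 and -2.44 in vehicle and at -1.88, -2.51 and -2.63 in DMBA, a difference of -0.28 (SE 0.31) that was 0.16 with the detection covariate. DMBA 1 was level with vehicle 1 and vehicle 2, and the other DMBA arrays lay below vehicle 3. Fut2, an H antigen enzyme of epithelia, lay at -2.83, -1.67 and -4.32 in vehicle and at -2.32, -2.31 and -1.79 in DMBA. All DMBA values fell inside the vehicle range, and the difference of 0.80 (SE 0.66) was 0.11 without vehicle 3. Fut4, which makes Lewis X, lay at -3.20, -3.51 and -3.82 in vehicle and at -3.22, -3.55 and -3.84 in DMBA, a difference of -0.03 (95% interval from -0.71 to 0.65). Its dimmer probe gave -0.49, with vehicle 2 at 0.43 and the other arrays from -6.22 to -2.57. Fut10 had a difference of 0.43 (SE 0.30), and 1.07 on its dimmer probe.

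Polypeptide GalNAc-transferases were tested for 13 of 19 genes, 7 above 0 and 6 below. In none did the groups separate on the brightest probe (0 of 13). Of all genes 4.88% were apart on the higher and 5.17% on the lower side, so nothing is read from this count. On a dimmer probe the groups of Galnt14 (-1.51) and Galnt12 (0.59) were apart. Galnt1 and Galnt2 are the broadly expressed starters of O-glycans. Galnt1 lay at 0.89, 1.47 and 1.94 in vehicle and at 0.95, 0.71 and 0.84 in DMBA, with vehicle 1 among the DMBA values and a difference of -0.60 (SE 0.32; adjusted p = 0.985 in limma). Galnt2 lay at 0.77, 2.20 and 1.09 in vehicle and at 2.21, 1.73 and 1.31 in DMBA, a difference of 0.40 (SE 0.45) that was 0.11 with slide as a block. Vehicle 2 was as high as the highest DMBA array. Galnt3, which glycosylates the phosphate hormone FGF23 in bone, lay at -2.75, -2.78 and -1.72 in vehicle and at -3.29, -2.34 and -1.57 in DMBA, a difference of 0.01 (SE 0.52). Galnt7, which acts on chains that already carry GalNAc, lay at -1.90, -2.06 and -1.35 in vehicle and at -1.32, -0.92 and -1.63 in DMBA, a difference of 0.48 (95% interval from -0.26 to 1.23). In Galnt7 DMBA 3 lay within the vehicle range, and in Galnt3 DMBA 1 was the lowest and DMBA 3 the highest of all arrays. Galnt10 had the lowest value of the group (-1.02, SE 0.51), its DMBA arrays from -2.17 to -1.14 and its vehicle arrays from -1.48 to 0.13.

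The 14 tested genes that extend chains with GlcNAc or GalNAc held 11 differences above 0 and 3 below, with a median of 0.16. The groups separated in 0 of them, beside 4.88% of all genes on the higher and 5.17% on the lower side, and nothing is read from this count. B3gnt2, the main enzyme of poly-N-acetyllactosamine, lay at 0.77, 0.02 and 0.16 in vehicle and at -0.48, 0.46 and -0.50 in DMBA. DMBA 2 lay inside the vehicle range, and the difference was -0.49 (SE 0.37). The highest value of all members was that of B3gnt9 (1.48, SE 0.77), with DMBA arrays at -3.92, -1.65 and -2.98 and vehicle arrays at -2.99, -5.02 and -4.98. B3galnt1, which makes the globoside Gb4, had a difference of 1.22 (SE 0.66), and B4galnt4, a LacdiNAc synthase, 1.08 with the largest error of the family (SE 1.76), since vehicle 3 lay at -7.99. B3gnt5, which commits lactosylceramide to the lacto series instead of GM3, had 0.11 (SE 0.98), with vehicle 2 at -6.86.

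**Figure D3:**
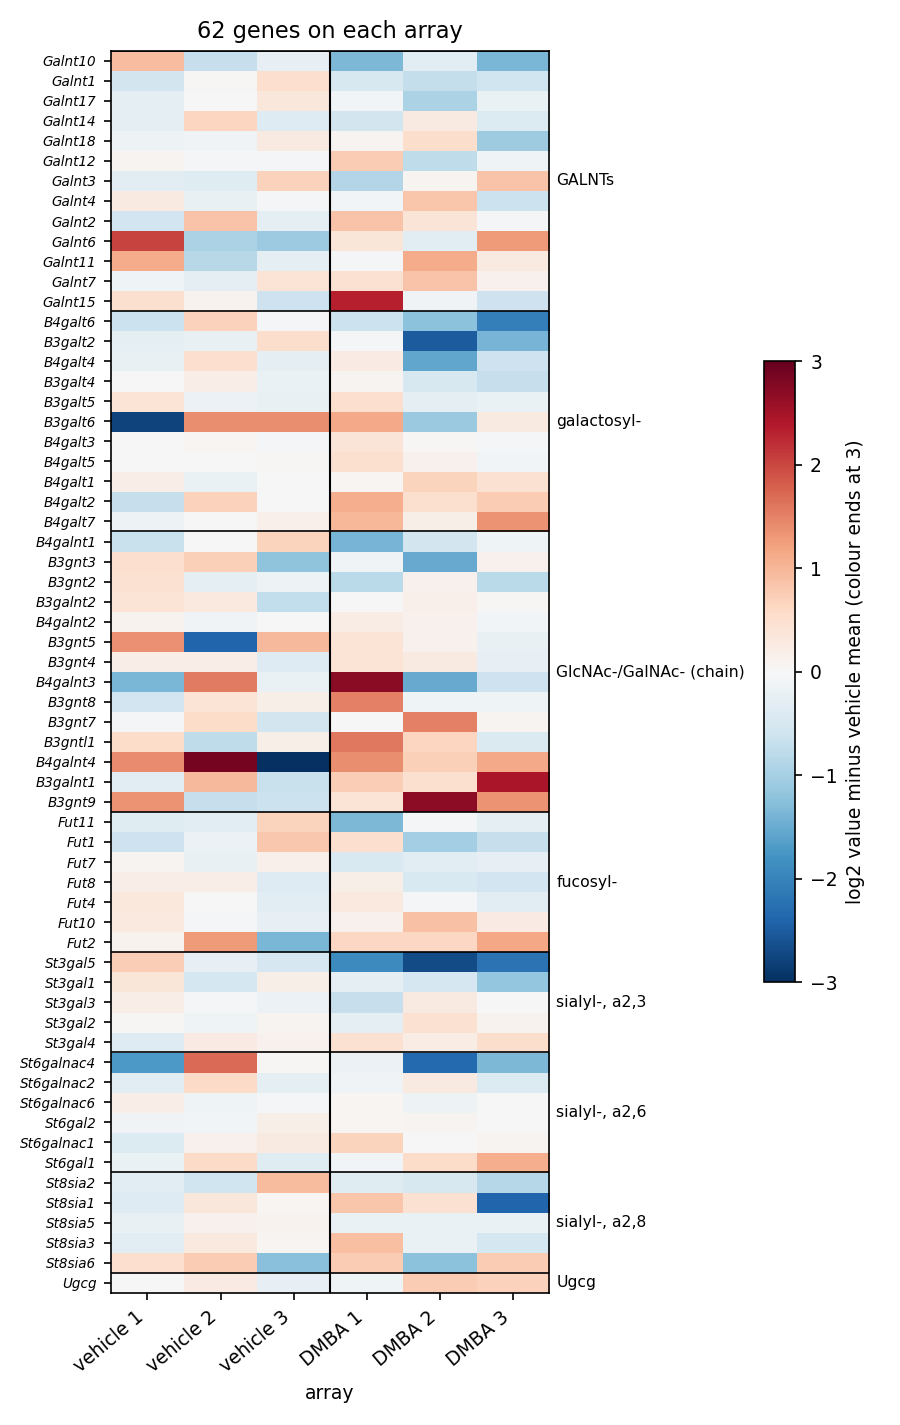
Each of the 62 genes tested on each array (columns), as log2 value minus the mean of its 3 vehicle arrays, red above and blue below, with genes grouped by family and ordered by difference. St3gal5 is blue on all 3 DMBA arrays, and the darkest vehicle cell is B4galnt4 on vehicle 3; the colour scale ends at 3 on either side of 0.

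For 17 genes 2 probes passed the same detection filter, which gives a second reading of the same arrays. The choice between them used the mean of each over all 6 arrays. The difference had the same sign on both probes in 11 genes and opposite signs in 6. Groups without overlap on the dimmer probe occurred in 3 genes, Galnt14, St3gal1 and Galnt12, and in none of these on the brighter one. For Galnt14 the dimmer probe lay at -1.40, -1.46 and -0.19 in vehicle and at -2.52, -2.88 and -2.19 in DMBA, a difference of -1.51. All its arrays were well above background, while the brighter probe gave -0.23 (SE 0.38). Galnt12 gave 0.59 on its dimmer and -0.05 on its brighter probe. Over all 79 such probes of members, groups were apart in 2 on the higher and 4 on the lower side. The shares over all probes of the array were not counted. Over all genes, each on its brightest probe, they were 4.88% and 5.17%. Nothing is read from the counts of probes.

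**Figure D4:**
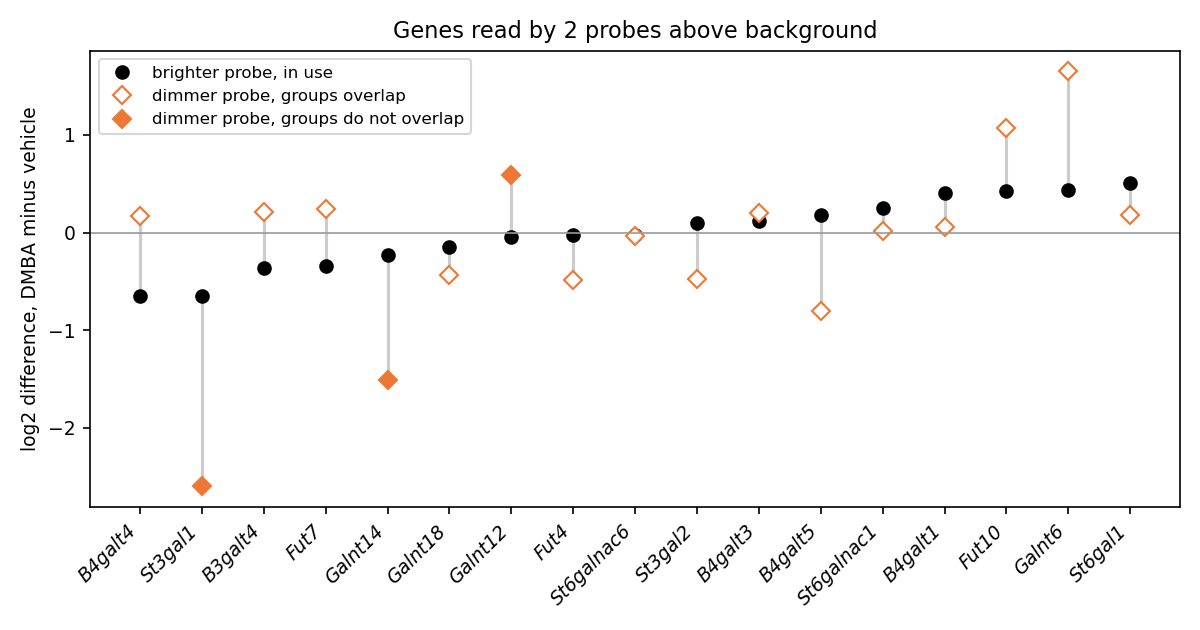
Log2 difference between DMBA and vehicle (vertical axis) for the 17 genes with 2 probes above background; black points are the brighter probe, orange diamonds the dimmer one, filled where groups do not overlap. The probes of a gene lie on opposite sides of 0 in 6 genes, and St3gal1 shows the lowest dimmer probe at -2.60.

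Genes that supply, reshape or read these glycans were taken from 8 lists of 140 genes, of which 124 were tested, 71 above 0 and 52 below with a median of 0.08. None passed over all genes (0 in limma, either direction). Groups were apart in 12 on the higher side (9.68%, where 4.88% of all genes were) and 5 on the lower side (4.03%, where 5.17% were). The lists were chosen with earlier results of these data known, so nothing is read from these shares or from the counts of each list. Of the genes that supply sialic acid, Cmas, which activates it, had a difference of 0.46 (SE 0.25), Nans 0.35 (SE 0.27), Gne, the first enzyme of sialic acid synthesis, 0.25 (SE 0.29) and the CMP-sialic acid transporter Slc35a1 -0.06 (SE 0.66), all with overlapping groups. Among nucleotide sugar genes Galm, a galactose mutarotase, was the 1 of 22 that was apart (1.70, SE 0.25; adjusted p = 0.438 in limma). Lysosomal hydrolases were apart in 3 of 16, all higher (18.8%, beside 4.88% of all genes), among them the mannosidase Man2b1 (0.88, SE 0.27) and the fucosidase Fuca1 (0.61, SE 0.22). Of the enzymes that degrade GM1 and GM2, Glb1 had a difference of 0.05 (SE 0.36) and Hexa of 0.19 (SE 0.50).

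In the list of other glycosyltransferases 5 of 24 were higher without overlap (20.8%, beside 4.88% of all genes) and 1 was lower (4.17%, beside 5.17%). Nothing is read from these shares, since the lists were chosen with earlier results of these data known. The higher ones were Pofut2 (0.84, SE 0.28), Ext2 (0.63, SE 0.33), Poglut1 (0.62, SE 0.25), B3gat1 (0.50, SE 0.24) and Mfng (0.37, SE 0.23), and the lower one was Chsy1 (-0.51, SE 0.25). Pofut2 and Poglut1 put fucose and glucose on folded repeats of secreted and surface proteins, Ext2 and Chsy1 build heparan and chondroitin sulfate. Of the N-glycan enzymes the mannosidases Man1a (0.52, SE 0.31) and Man2a2 (-0.59, SE 0.31) were apart, and of the transporters Slc35a3 (-0.38, SE 0.21). The sialic acid O-acetyltransferase Casd1, which acetylates gangliosides such as GD3, was lower (-0.69, SE 0.25; vehicle from -0.35 to 0.18, DMBA from -0.94 to -0.64), as was the sialidase Neu2 (-0.40, SE 0.23). Lgals12, a galectin, was higher (1.03, SE 0.32), and so was Cd22, a siglec (0.16, SE 0.20). In the mucin core list groups were apart in 0 of 6 genes, with C1galt1, the core 1 enzyme, at -0.40 (SE 0.33).

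Markers of the sorted cells and of others moved beside these values, and their part in the St3gal5 difference was not tested. Of 8 markers of the sorted cells 2 were lower without overlap, the follicle stem cell genes Lgr5 (-0.64) and Sox9 (-0.50). Neither passed over all genes (adjusted p of 0.894 and 0.967 in limma). The groups overlapped in Krt5 (0.22), Krt15 (0.19), Krt14 (0.12), Lhx2 (0), Cd34 (-0.01) and Itga6 (-0.19). Over all genes tested, groups were apart in 4.88% on the higher and 5.17% on the lower side. The 8 genes of the sorted cells summed on the linear scale to 336 to 394 in vehicle and 350 to 521 in DMBA. Sums are in units of the array's 75th percentile. Krt14, Krt5 and Krt15 made up most of this sum, so it says little of Lgr5 and Sox9. Of 6 fibroblast markers 4 were tested: Dcn (1.51) and Col1a1 (1.29) were higher without overlap, while Col1a2 (0.51) and Col3a1 (-0.52) overlapped. The list summed to 1.02 to 3.10 in vehicle and 2.57 to 3.16 in DMBA, with Pdgfra above background on 0 arrays. Melanocyte markers, 8 of 8 tested, summed to 2.95 to 4.46 and 4.14 to 6.75, with 0 of them apart. Differences were nonetheless large in some: 3.35 (SE 1.32) in Tyrp1, detected on 1 vehicle and 3 DMBA arrays, 2.72 (SE 0.95) in Mlana and -1.24 (SE 0.73) in Kit. The adjusted p in limma was 0.941 for Tyrp1, 0.896 for Mlana and 0.992 for Kit. The rest lay nearer 0, Tyr at 0.1, Dct at -0.05, Mitf at -0.08, Sox10 at -0.43 and Pmel at -0.47. The leukocyte list (7 of 7 tested) summed to 91.4 to 115 and 87.7 to 142, of which Itgam, at 6.41 to 7.11 on the log2 scale, made up most, and its H2-Aa was lower (-0.49). The list of interfollicular and sebaceous cells (7 of 7) summed to 46.9 to 73.5 and 50.3 to 78.9, with Ly6a, the gene of the Sca1 antigen, higher without overlap (1.45). Endothelial markers (4 of 5 tested) summed to 2.15 to 2.28 and 2.03 to 2.75, with 0 apart, and erythroid ones (3 of 4) to 0.397 to 4.21 and 0.756 to 5.18, also with 0 apart. Detected probes made up 77% to 83.6% of the total in vehicle and 69.3% to 80.9% in DMBA, and members with a probe above background numbered 58 to 65 and 55 to 64. Vehicle 1 lay on a slide and scan of its own.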

How the data were processed

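Expression was measured on 1-colour Agilent arrays, 3 vehicle and 3 DMBA samples from different mice, per the series description. The deposited scanner files hold spot intensity, which Agilent Feature Extraction 10.7.1.1 had corrected for background, per the submitters' processing notes. In the deposited matrix the intensity of each column has a 75th percentile near 1, and this matrix served as an alternative. No amplification step is named in the labels.

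Values are log2 processed intensity minus the log2 of the array's 75th percentile. Control spots were left out, outlier spots (45 probe values) set as missing and spots of a probe averaged. A gene is the kept probe (well above background on at least 3 arrays) of highest mean. Names come from RefSeq accessions matched to the RefSeq table of GRCm38.p6, from which gene names alone were taken (28331 of 55681 probes matched). Galnt6os and St8sia3os, which the annotation also names, had no probe. Levels are not compared between probes.

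DMBA was compared with vehicle by limma 3.58.1 (lmFit, eBayes, two-sided, R 4.3.3) over 17834 genes with Benjamini-Hochberg adjustment at 0.05, checked on simulated data. Precision is limited by 3 arrays a group. Alternatives were normexp, quantile and median scaling, the matrix, other filters and probe rules, slide, replicate number and each array's share of detected probes as terms, a trended variance and each array left out. Normexp used median spot signals (offset 50), where mean spot signals had been planned. Named members were those without overlap whose higher group was above background throughout and 19 chosen for their roles. St6galnac1, B3gnt9 and others given with values, and genes shown for a single odd array, were named after their values were seen. Members, lists and rules were chosen with earlier results of these data known. Some genes of the lists are not reported here.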

Additional observations from a re-analysis of the deposited data

How the results depend on the processing

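No member passed over all genes in any alternative (0 in each; smallest adjusted p = 0.422, St3gal5 with a trended variance). The sign of St3gal5 was kept in all 17, but most of them could not have turned it. Its groups do not overlap, so leaving out any array, or slide as a block, keeps the sign. Other filters, the probe rule, the replicate block and the trended variance left its 1 probe at -2.26. Those that could turn it gave -2.18 (normexp), -2.26 (quantile), -2.33 (median scaling), -2.27 (deposited matrix) and -1.71 (detection covariate). The median of the members, 0.06, was 0.17 with the detection covariate and ran from -0.08 to 0.11 when each array was left out. The median over all genes moved too, from -0.01 to 0.1 with the covariate and to between -0.08 and 0.03 with each array left out. The count of members higher without overlap, 1, was 0 with quantile normalization, median scaling or the deposited matrix and 2 with no filter on dim probes. Of all genes 4.86%, 3.74%, 4.72% and 8.44% were higher without overlap in these settings, in that order, beside 4.88% in the main one. The count lower, 2, was 1 with normexp and 4 with median scaling, where 4.63% and 7.48% of all genes were lower, beside 5.17% in the main setting. Leaving out each array gave 3 to 8 higher and 2 to 10 lower, where 8.35% to 9.86% and 8.85% to 16% of all genes were. Groups of 2 against 3 separate more often. The cause of these shifts was not tested. Terms added to the fit leave counts of overlap as they are. The labels number replicates 1 to 3 in both groups and do not say whether the numbers pair mice. Same-numbered arrays deviated with correlations of 0.0182, -0.0198 and 0.0585 across genes, and differently numbered ones with -0.0591 to 0.0431. Low correlations show little shared deviation and cannot tell whether the mice were paired. With the replicate block 0 members passed (smallest adjusted p = 0.79) and the median was 0.06. Slide as a block equals leaving out vehicle 1. Of the 21 named members 15 kept their sign in every alternative that gave a value, and B4galt5, St8sia1, St6galnac2, Fut8, Fut4 and Galnt3 did not.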

Other observations

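The 14 members that were not tested were well above background on 0 arrays (B3galt1, Fut4-ps1, Galnt13, Galntl5, St3gal6 and St8sia4), on 1 array (B3gnt6, Fut9, Galnt5, Galnt9, St6galnac3 and St6galnac5) or on 2 arrays (Galnt16 and Galntl6). Fut9, which makes Lewis X in brain, was well above background on DMBA 2 alone, where 1 of its probes lay at -2.03, against -7.56 to -5.87 on the other 5 arrays. St6galnac5, a brain ganglioside enzyme, was well above background on vehicle 2 alone, at -5.62.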
